A study of Homo sapiens with 6 samples.

Results

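Interferon-stimulated genes are described here in Namalwa, Raji and Ramos, 3 lines grown from Burkitt lymphoma, a fast-growing tumour of B cells in which a translocation activates MYC. The set was a list of 44 genes, and 43 of them were matched by current or former symbol to 80 probe sets of the array. A gene was read from its brightest probe set, the one with the highest mean over the arrays. Those 43 stood among 19775 genes with a probe set in all. STAT2 had no probe set named for it in the annotation used here and was not analysed here. Of the 43 genes, 33 had a mean level at or above 4.42 on the log2 scale, the median of the probe sets that are not controls, and were tested among 12012 genes. That value is called the level minimum, and a gene with both arrays of a line below it is called near background in that line.

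Total RNA was hybridised to 6 Affymetrix U133 Plus arrays, and every level below is a log2 intensity made by RMA. The empty group held 1 array of each line, as did the miR26a group, so each group had 3 arrays. Cells of each line were transfected, and doxycycline at 0.5 µg/ml for 72 h, which switched on the microRNA, is listed for all 6 samples, the empty ones included. The labels do not say what the empty construct holds, whether a transfected line was 1 clone or a pool, or whether arrays stand for separate cultures. The p-values therefore describe only how these 6 samples varied. The title of the study sets miR-26a between MYC and EZH2, and EZH2 changed by -0.76 in Namalwa, -0.31 in Raji and -0.61 in Ramos (mean -0.56, SE 0.12, limma adjusted p = 0.106). Of 9 listed B-cell markers 8 had a probe set, and all 8 were above the level minimum in mean level. Of 9 T and NK cell markers 7, of 7 monocyte and macrophage markers 5 and of 6 plasmacytoid dendritic cell markers 3 were below it on every array. RNA quality differed on the Namalwa empty array, where 3′ minus 5′ signal of the ACTB controls was 3.58 log2 (1.8 to 1.98 elsewhere), and this array enters each Namalwa change below.

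Cells that sense foreign nucleic acid release type I interferon, which binds the receptor IFNAR1-IFNAR2 and activates the kinases JAK1 and TYK2. These phosphorylate STAT2, which joins IRF9 in the complex ISGF3, and the complex binds the interferon-stimulated response element in the promoters of the genes described here. The products block viruses by seizing viral RNA, cutting RNA, halting translation or modifying proteins, and some of them, such as USP18, damp the signal.

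The mature microRNA and 4 promoters are shown so that the induced molecule and the shared element of these genes can be read. In the microRNA the capitals mark the seed, bases 2 to 8. In the promoters, the 250 bases before the start of the gene, read 5′ to 3′ on the strand of the gene, the capitals mark each match to the core of the response element, which is GAAA, any 2 bases and GAAA again, on either strand (TTTC, any 2 bases and TTTC where the match is on the other strand). All sequences are from RefSeq, and the promoter coordinates are those of GRCh38.p14. The promoters belong to the 4 genes with the smallest p for miR26a minus empty among those with a match.
hsa-miR-26a-5p: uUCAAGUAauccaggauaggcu
IFIT1 promoter, chr10:89392373-89392622, plus strand: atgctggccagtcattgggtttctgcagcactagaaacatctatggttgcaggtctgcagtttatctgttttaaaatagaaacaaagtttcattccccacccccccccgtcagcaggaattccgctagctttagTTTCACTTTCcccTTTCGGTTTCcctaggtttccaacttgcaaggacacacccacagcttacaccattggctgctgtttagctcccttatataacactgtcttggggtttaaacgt
IFIT3 promoter, chr10:89327747-89327996, plus strand: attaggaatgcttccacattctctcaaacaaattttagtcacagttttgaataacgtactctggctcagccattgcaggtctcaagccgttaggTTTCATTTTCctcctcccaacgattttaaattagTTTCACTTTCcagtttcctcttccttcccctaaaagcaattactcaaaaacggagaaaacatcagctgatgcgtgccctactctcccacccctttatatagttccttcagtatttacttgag
SAMD9 promoter, chr7:93117980-93118229, minus strand: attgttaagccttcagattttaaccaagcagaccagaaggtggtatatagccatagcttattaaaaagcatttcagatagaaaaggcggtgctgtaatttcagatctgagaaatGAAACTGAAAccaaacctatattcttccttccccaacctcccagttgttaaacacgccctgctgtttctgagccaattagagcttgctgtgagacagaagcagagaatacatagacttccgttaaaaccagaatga
IFI6 promoter, chr1:27672193-27672442, minus strand: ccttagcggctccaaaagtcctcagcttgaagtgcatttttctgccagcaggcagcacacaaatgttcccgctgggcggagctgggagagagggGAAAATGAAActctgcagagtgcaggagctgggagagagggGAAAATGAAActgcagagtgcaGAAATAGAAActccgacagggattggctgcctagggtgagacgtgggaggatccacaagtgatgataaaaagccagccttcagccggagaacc

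IFIT1 had 2 matches, which began 116 and 103 bases before its start. IFIT3 also had 2, the farther at 156 and the nearer at 122 bases. SAMD9 had 1, at 136 bases, and IFI6 had 3, of which the farthest began at 156 and the nearest at 93 bases. Of the 44 genes, 36 had a window in the RefSeq table, and 24 of these (66.7%) held the core, against 3.71% of the 27305 genes in the table and 3.29% of the 9697 tested genes with a window. TTCNNNGAA, the form of a STAT site, was in 11 of the 36 (30.6%), against 8.09% of all genes. The 2 motifs were searched on both strands and can overlap. RNF213, IRF9 and SAMD9L had no match to the core in their windows, and IFIT2 and USP18 had no window in the table. A match says only that these letters are present.

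Many of these genes were readable in Burkitt lymphoma cells, but not all, and the counts that follow use the arrays of both groups. Of the 43 genes, 22 were at or above the level minimum on all 6 arrays, 8 were below it on all 6 and 13 lay between. Near background were 10 genes in Namalwa, 11 in Raji and 9 in Ramos. The 8 genes that stayed below on every array were DDX60, a helicase of RNA sensing, OAS3, a synthetase that activates RNase L, the ISG15 ligase HERC5 and its relative HERC6, RSAD2 (viperin), its neighbour CMPK2, IFI27, and XAF1, an inhibitor of XIAP. The widest change among these in any line was that of RSAD2, at 3.37 on the Raji empty array and 4.30 on the Raji miR26a array, while its change was -0.32 in Namalwa and -0.06 in Ramos. IFI44 and IFI44L were also too low in mean level to be tested, although they passed the minimum on some arrays. Levels of different genes come from different probe sets and are not set against each other.

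With miR26a, the genes were mostly higher, and none passed the threshold over all genes. Of the 33 tested, 0 had a limma adjusted p under 0.05, as did 0 of all 12012 genes (0%), and 0.073 was the smallest value reached. At an unadjusted p under 0.05, 15 of 33 were higher, against 5.56% of all genes, and 0 were lower, against 7.33%. In all 3 lines at once 19 were higher, against 15.5% of all genes, and only OASL was lower, against 19.6%. The median change was 0.24, with quartiles of 0.15 and 0.51, and the median of all tested genes was -0.01, with quartiles of -0.11 and 0.09. With the genes too low to test included, 17 of 43 were higher at an unadjusted p under 0.05 (4.33% of all genes), 0 were lower (6.01%), 21 were higher in all 3 lines (13.6%) and 1 lower (17.9%), with a median of 0.23. A mean change of at least 0.5 log2 was seen in 9 of the 33 genes, against 0.641% of all genes. The members were chosen with earlier results of these data known, so these counts describe the list and do not test it. A separate list of 33 tested genes induced by type I interferon, given below, had a median of 0.03. Of that list, 3 were higher (5.56% of all genes) and 3 lower (7.33%) at an unadjusted p under 0.05. In bulk RNA, more cells with a response and more RNA per cell cannot be told apart.

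**Figure D1:**
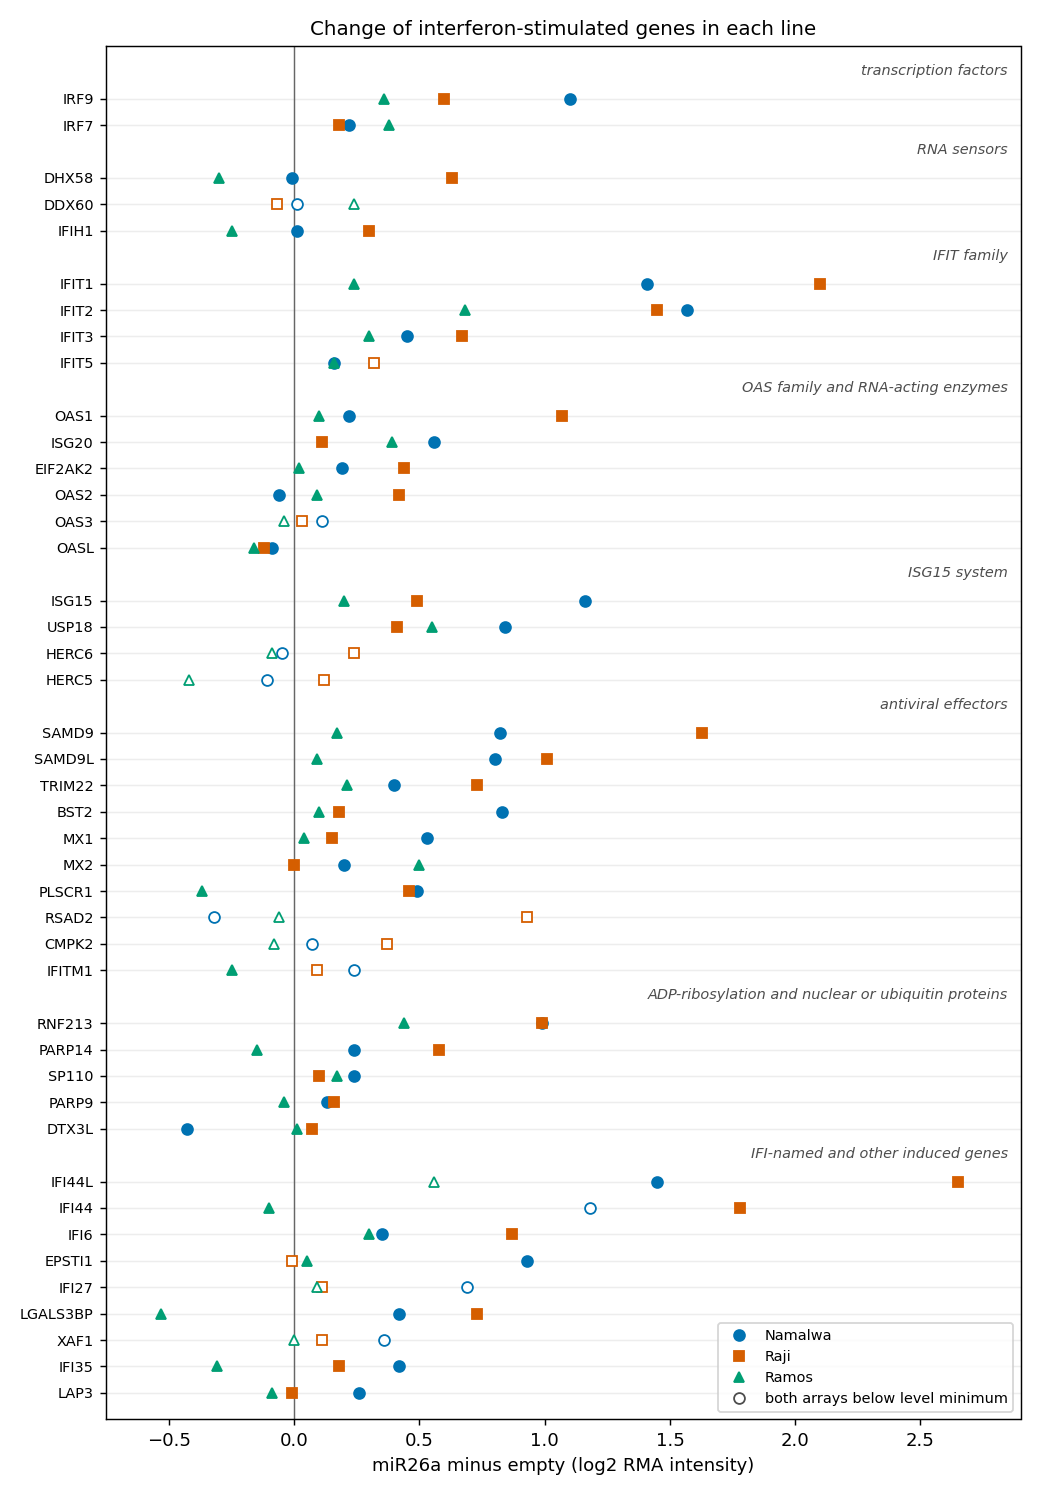
Change of each of the 43 interferon-stimulated genes, miR26a minus empty in log2 intensity on the x axis, in Namalwa (circles), Raji (squares) and Ramos (triangles), with genes grouped by role on the y axis. Open symbols mark genes with both arrays of that line below the level minimum of 4.42. Most points lie right of 0, and 19 of the 33 tested genes were higher in all 3 lines (15.5% of all genes).

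The counts and medians of the lines are given side by side, and no difference between lines was tested for the group as a whole. For single genes, the test of a line's change against the other lines passed for 0 of 33 in each line. Of the 33 genes, 12 were at least 0.5 log2 higher in Namalwa (3.33% of all genes), 13 in Raji (2.95%) and 2 in Ramos (1.81%). In the opposite direction the counts were 0 in Namalwa (4.13%), 0 in Raji (2.28%) and 1 in Ramos (1.9%). Line medians were 0.40, 0.42 and 0.10, against -0.01, -0.02 and -0.01 for all genes. Among the 15 genes with an unadjusted p under 0.05, the largest change was in Raji for 8, in Namalwa for 6 and in Ramos for 1 (IRF7), and the smallest change was in Ramos for 12. Among all genes higher at that p, Ramos had the smallest change in 36.1%. Across the 33 genes, the changes correlated at r = 0.58 between Namalwa and Raji, 0.49 between Namalwa and Ramos and 0.27 between Raji and Ramos, against 0.14, 0.35 and 0.19 over all tested genes. These are correlations across genes, which share each line's 2 arrays and are not independent replicates.

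**Figure D2:**
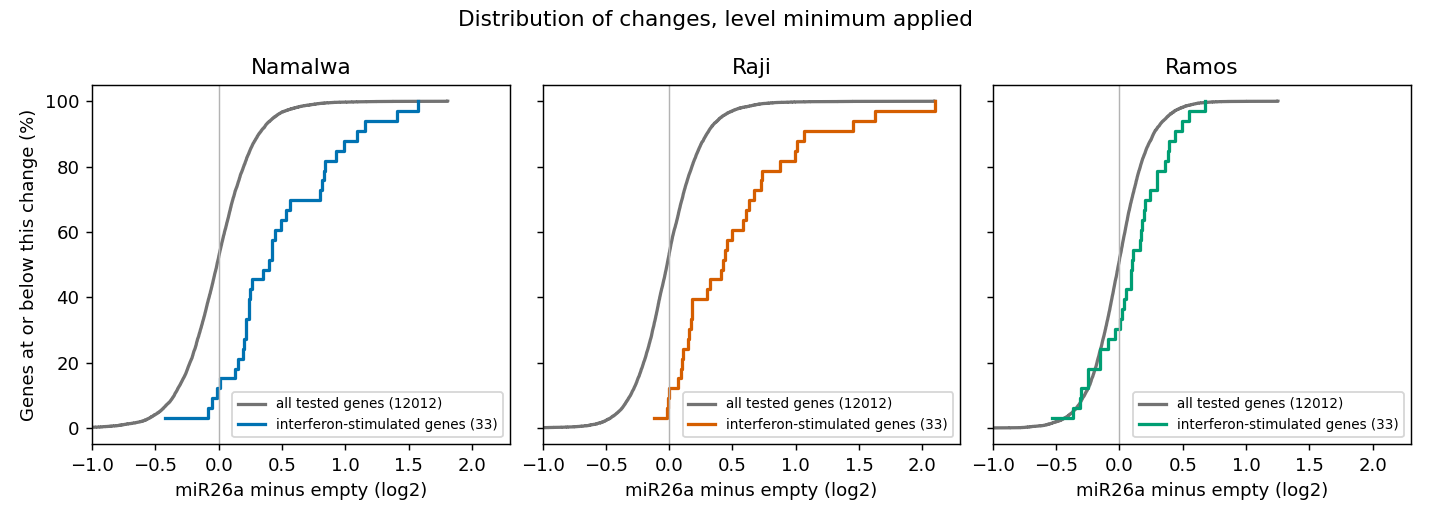
Cumulative share of genes (y axis, percent) at or below each change, miR26a minus empty in log2 intensity (x axis), for the 33 tested interferon-stimulated genes (colour) and all 12012 tested genes (grey), 1 panel for each line. The coloured curve lies right of the grey one in Namalwa and Raji, with medians of 0.40 and 0.42, and closer to it in Ramos, with a median of 0.10.

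The number called depended on which line was left out and on the fit. Without Ramos, 7 of 33 passed an adjusted p of 0.05 (IFIT1, IFIT2, IRF9, ISG15, RNF213, SAMD9 and SAMD9L; 0.191% of all genes), without Raji 4 did (IFIT2, IRF9, RNF213 and USP18; 1.69%) and without Namalwa 0 (0%). With an intensity trend and robust prior in limma 3 passed (IFIT2, IRF9 and RNF213; 0.849%). After the level minimum was raised to the 75th percentile, 1 of the 15 genes still tested passed, RNF213, among 50 genes called in all. IFIT2, with a mean level of 6.07, lay below that minimum of 6.19 and was not tested there. IRF9 missed there (adjusted p = 0.0609).

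Of the transcription factors, IRF9 and IRF7 were higher in all 3 lines (15.5% of all genes). IRF9, the DNA-binding subunit of ISGF3, was at 6.46 on the empty and 7.55 on the miR26a array of Namalwa, at 6.05 and 6.65 in Raji and at 5.97 and 6.33 in Ramos. The Namalwa miR26a array stood above the rest, and the groups overlapped because Namalwa empty exceeded Ramos miR26a. The mean change was 0.69 (SE 0.14, limma adjusted p = 0.101). Left without Namalwa, it was 0.48 (adjusted p = 0.360). IRF7, the factor that amplifies interferon transcription, was at 4.37 and 4.59 in Namalwa, 5.98 and 6.16 in Raji and 4.93 and 5.31 in Ramos. Raji lay highest in both groups, the groups overlapped, and the change was 0.26 (SE 0.10, adjusted p = 0.324).

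IFIT proteins bind viral RNA that lacks the marks of host RNA. By their brightest probe sets, 4 of 4 IFIT genes were higher in all 3 lines (15.5% of all genes), with a median change of 0.85. Another IFIT3 probe set above the level minimum changed by -0.04 in Ramos. IFIT2 was at 5.31 and 6.88 on the empty and miR26a arrays of Namalwa, 5.28 and 6.73 in Raji and 5.78 and 6.46 in Ramos. The groups did not overlap. On average it was 2.35-fold brighter with miR26a, a change of 1.23 (SE 0.16, 95% interval 0.87 to 1.60, adjusted p = 0.0730). Groups that do not overlap, with miR26a higher, were found for 4 of the 33 genes and 1.61% of all genes.

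IFIT1 was at 4.44 and 5.85 in Namalwa, 3.78 and 5.88 in Raji and 4.79 and 5.03 in Ramos, and its groups did not overlap either. In Raji its change of 2.10 ranked first among all tested genes, and in Ramos it was 0.24. The empty array of Raji lay below the level minimum, so the size there is measured from background. Its mean change was 1.25 (SE 0.27, 95% interval 0.65 to 1.85, adjusted p = 0.111), and 0.82 without Raji. IFIT3, a partner that stabilises IFIT1, was at 6.73 and 7.18 in Namalwa, 5.59 and 6.26 in Raji and 6.50 and 6.80 in Ramos. Raji was lowest in both groups, the groups overlapped, and the change was 0.47 (SE 0.11, adjusted p = 0.128). IFIT5, which lies next to IFIT1, changed by 0.16, 0.32 and 0.16 in Namalwa, Raji and Ramos. A second IFIT5 probe set gave 1.00, 0.45 and 0.52, and in each of the 2 the Raji arrays were near background.

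The ISG15 system pairs a ubiquitin-like protein with the enzymes that attach and remove it. Both of its tested genes were higher in all 3 lines (15.5% of all genes). ISG15 was at 7.57 and 8.72 in Namalwa, 9.03 and 9.52 in Raji and 7.48 and 7.68 in Ramos. Namalwa showed the largest step and Raji the highest level, and the groups overlapped. The change was 0.62 (SE 0.16, adjusted p = 0.153), and 0.35 without Namalwa (adjusted p = 0.438). USP18, the protease that removes ISG15 and also blocks signalling at IFNAR2, was at 5.29 and 6.13 in Namalwa, 4.67 and 5.08 in Raji and 4.77 and 5.32 in Ramos. The Namalwa empty array was above the Raji miR26a array, so the groups overlapped. The change was 0.60 (SE 0.11, adjusted p = 0.0826), and HERC5 and HERC6 stayed below the level minimum on every array.

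Among the antiviral effectors, 5 of 8 tested genes were higher in all 3 lines (15.5% of all genes), with a median of 0.31. SAMD9, which restricts poxviruses, was at 6.38 and 7.19 in Namalwa, 3.0 and 4.63 in Raji and 7.03 and 7.20 in Ramos. The Raji arrays were far below the others, and the groups overlapped. The change was 0.87 (SE 0.22, adjusted p = 0.140), with 1.63 in Raji measured from a level below the minimum, and it was 0.49 without Raji. Its neighbour SAMD9L was at 6.05 and 6.85 in Namalwa, 5.14 and 6.15 in Raji and 6.76 and 6.86 in Ramos. Raji was lowest in both groups, the groups overlapped, and the change was 0.64 (SE 0.16, adjusted p = 0.145). In Ramos this probe set changed by 0.09 and another one by 0.63.

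TRIM22, a ubiquitin ligase that restricts viral transcription, was at 6.81 and 7.20 in Namalwa, 6.57 and 7.30 in Raji and 7.84 and 8.05 in Ramos. Ramos was highest in both groups, which overlapped, and the change was 0.44 (SE 0.12, adjusted p = 0.163). BST2, the tether that holds budding virions at the cell surface, changed by 0.37 (SE 0.14, adjusted p = 0.315), from 0.83 in Namalwa to 0.10 in Ramos, and by 0.14 without Namalwa. MX1 and MX2, GTPases that trap viral nucleocapsids, were at 0.24 and 0.23. MX1 was at 0.09 without Namalwa and MX2 at 0.10 without Ramos. IFITM1, which blocks viral entry, was at 0.03, and the scramblase PLSCR1 was at 0.49 and 0.46 in Namalwa and Raji but -0.37 in Ramos.

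The enzymes that act on RNA gave smaller values, with a median of 0.22. Of 5 tested genes 3 were higher in all 3 lines (15.5% of all genes). The exonuclease ISG20 was at 9.07 and 9.63 in Namalwa, 8.19 and 8.31 in Raji and 9.46 and 9.85 in Ramos. Raji was lowest, the groups overlapped, and the change was 0.35 (SE 0.12, adjusted p = 0.237). OAS1, which makes the activator of RNase L, changed by 0.22, 1.07 and 0.10 in Namalwa, Raji and Ramos (mean 0.46, SE 0.17, adjusted p = 0.298). Without Raji the OAS1 change was 0.16. The translation-blocking kinase EIF2AK2 (PKR) was at 0.22, and at 0.11 without Raji, OAS2 at 0.15 and OASL at -0.12. In Ramos the brightest EIF2AK2 probe set changed by 0.02 and another one above the level minimum by -0.27. Of the RNA sensors, IFIH1 (MDA5) was at 0.02 and DHX58 (LGP2) at 0.11, and neither was higher in all 3 lines.

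RNF213, a large ubiquitin ligase, had the second smallest p of the 33 genes. It was at 5.84 and 6.83 in Namalwa, 5.86 and 6.85 in Raji and 6.49 and 6.93 in Ramos. The groups did not overlap, and the change was 0.81 (SE 0.13, 95% interval 0.51 to 1.10, adjusted p = 0.0730). Of its 7 probe sets above the level minimum, 6 were higher on average, and all 7 ran from -0.03 to 0.90. The ADP-ribosyltransferases PARP9 and PARP14 were at 0.08 and 0.23, DTX3L, the partner of PARP9, at -0.12 and the nuclear body protein SP110 at 0.17.

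IFI6, a mitochondrial and endoplasmic reticulum protein, was at 4.88 and 5.23 in Namalwa, 4.66 and 5.53 in Raji and 4.63 and 4.92 in Ramos. The groups did not overlap, by a narrow margin between 4.88 and 4.92, and the change was 0.51 (SE 0.13, adjusted p = 0.146), or 0.32 without Raji. IFI44L, an interferon-induced gene below the minimum in mean level, was at 3.02 and 4.47 in Namalwa, 4.43 and 7.08 in Raji and 2.94 and 3.50 in Ramos. Raji miR26a alone was far above background, and the groups overlapped. Its mean change of 1.55 was the largest of the 43, and with no level minimum its adjusted p was 0.0999. IFI44, its neighbour on the chromosome, was at 3.12 and 4.30, 4.03 and 5.82, and 4.48 and 4.38 in the same order, with a change of 0.96 (adjusted p = 0.221 with no level minimum). The values of these 2 genes were singled out after they were seen. IFI35 changed by 0.10 and LAP3, a leucine aminopeptidase, by 0.05, and EPSTI1 and LGALS3BP by 0.32 and 0.21, all 4 with lines of unlike sign.

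**Figure D3:**
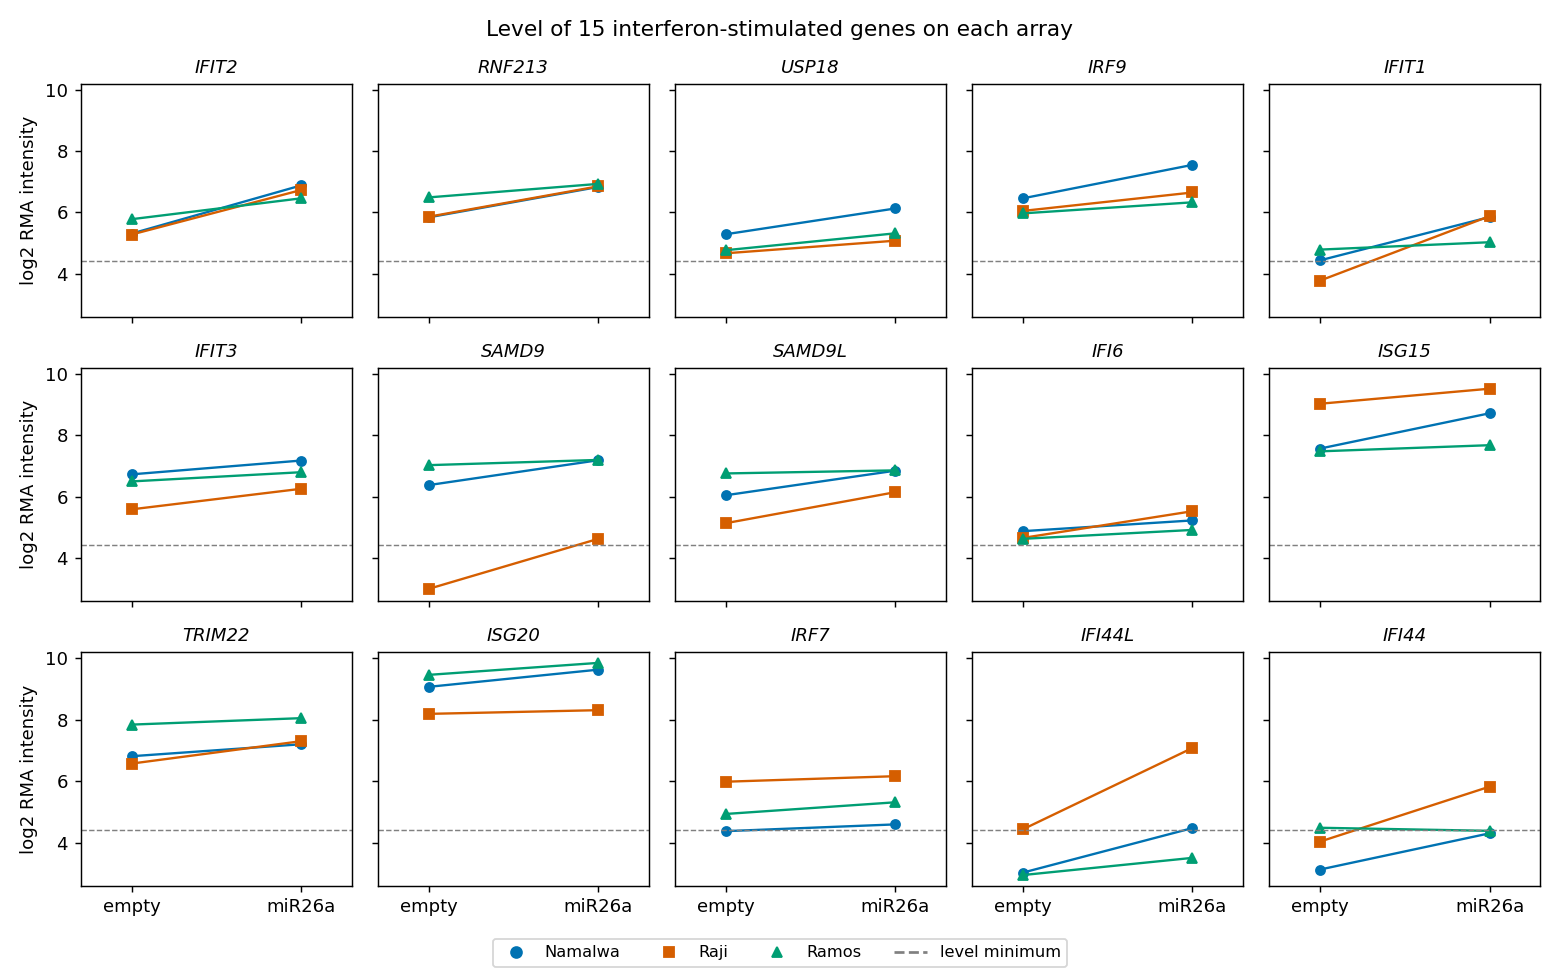
Log2 RMA intensity (y axis) of 15 interferon-stimulated genes on the empty and miR26a arrays (x axis), with a line joining the 2 arrays of each cell line. The dashed line marks the level minimum of 4.42. IFIT1, IFIT2, RNF213 and IFI6 have groups that do not overlap, and IFI44 and IFI44L start near or below the minimum.

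Some of the genes lie next to each other on a chromosome. SAMD9 and SAMD9L changed by 0.82 and 0.80 in Namalwa and 1.63 and 1.01 in Raji, and IFI44L and IFI44 by 1.45 and 1.18 in Namalwa and 2.65 and 1.78 in Raji. IFIT2 and IFIT3, also neighbours, changed by 1.57 and 0.45 in Namalwa, 1.45 and 0.67 in Raji and 0.68 and 0.30 in Ramos. These are values of the brightest probe sets, and another probe set of IFIT3 gave 0.23, 1.54 and -0.04. Of the 12 genes with several probe sets above the minimum, 9 had mean changes of 1 sign in all of them, the exceptions being OAS2, PARP9 and RNF213. Single lines could still differ in sign. IFIT2's 2 probe sets gave 0.61 and 1.23, so the size of its change depended on the probe set.

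Whether the response itself differed between lines was tested as the change of 1 line against the mean change of the other 2, with 1 residual degree of freedom per gene. For no line did a gene of the 33 pass (0 each, against 0%, 0.208% and 0% of all genes for Namalwa, Raji and Ramos; smallest limma adjusted p 0.612, 0.127 and 0.189). At an unadjusted p under 0.05 there were 4, 7 and 8, against 6.57%, 8.7% and 2.47% of all genes. The difference was -1.52 for IFIT1 in Ramos (SE 0.30), 1.13 for SAMD9 in Raji (SE 0.26) and 0.91 for EPSTI1 in Namalwa (SE 0.21). With no level minimum, 1 of 43 passed, IFI44L, against 30 of all 19775 genes, with Raji at 1.65 above the other lines (adjusted p = 0.0210).

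Differences between the lines in level were larger and often passed the threshold, and each line was read from its 2 arrays with the group held as a block. Namalwa and Raji differed in 21 of 33 genes, against 46.1% of all genes. Of these 13 were higher in Namalwa (23.4% of all genes) and 8 in Raji (22.8%). Raji and Ramos differed in 20 (50.5%), 7 higher in Raji (26.1%) and 13 in Ramos (24.4%). Namalwa and Ramos differed in 10 (14.7%), 4 higher in Namalwa (8.09%) and 6 in Ramos (6.57%). This count fell without the Namalwa miR26a array, which left 1 Namalwa array, and the share of all genes fell as well. At least 1 pair of lines differed for 25 genes, against 60.9% of all genes, and 8 genes differed in no pair. These shares lie near or above those of all genes. The genes split between lines in both directions.

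Above both other lines in Raji stood 7 genes (17.5% of all genes): BST2, IFIH1, IRF7, ISG15, LGALS3BP, PARP9 and PLSCR1. LGALS3BP, a secreted galectin ligand, was at 4.59 and 5.01 on the empty and miR26a arrays of Namalwa, 7.68 and 8.41 in Raji and 4.92 and 4.39 in Ramos. Both Raji arrays were above all others, and Raji exceeded Ramos by 3.39 (SE 0.25, limma adjusted p = 3.20e-06). PLSCR1 was at 5.87 and 6.36 in Namalwa, 6.45 and 6.91 in Raji and 4.75 and 4.39 in Ramos. Ramos was below both other lines, and Raji exceeded Ramos by 2.11 (SE 0.20).

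IFIH1, the sensor of long double-stranded RNA, was at 5.68 and 5.68 in Namalwa, 7.21 and 7.51 in Raji and 5.57 and 5.32 in Ramos. Raji did not overlap with the other lines, and the excess over Ramos was 1.91 (SE 0.15). ISG15, with its levels given above, was 1.70 higher in Raji than in Ramos (SE 0.20), and IRF7 was 1.59 higher in Raji than in Namalwa (SE 0.13).

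Below both other lines in Raji stood 9 genes (18.6% of all genes): EPSTI1, IFIT3, ISG20, MX2, OAS1, OAS2, PARP14, SAMD9 and SAMD9L. SAMD9 was 3.30 lower in Raji than in Ramos (SE 0.27), with Raji near background on its empty array. EPSTI1, a stromal interaction protein, was at 4.64 and 5.57 in Namalwa, 3.42 and 3.40 in Raji and 6.03 and 6.08 in Ramos. Raji lay below the level minimum on both arrays, and the difference from Ramos of -2.64 (SE 0.21) is therefore no exact size. MX2 was at 6.45 and 6.65 in Namalwa, 4.92 and 4.92 in Raji and 6.28 and 6.78 in Ramos. Raji was lowest in both groups, and Namalwa exceeded it by 1.63 (SE 0.15).

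Namalwa was above both other lines for IRF9 and USP18 (3.36% of all genes) and below both for IRF7 (2.49%). Ramos was above both for 5 genes (3.82%), EPSTI1, IFIT5, IFITM1, PARP14 and TRIM22, and below both for 2 (4.66%), PARP9 and PLSCR1. IFIT5 was at 4.41 and 4.57 in Namalwa, 4.01 and 4.33 in Raji and 5.77 and 5.93 in Ramos. Both Raji arrays were below the minimum and both Ramos arrays were above all others. The Raji minus Ramos difference of -1.68 (SE 0.12) is therefore no exact size, and it was -2.62 over the mean of its probe sets and -3.56 by the probe set with the largest SD.

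**Figure D4:**
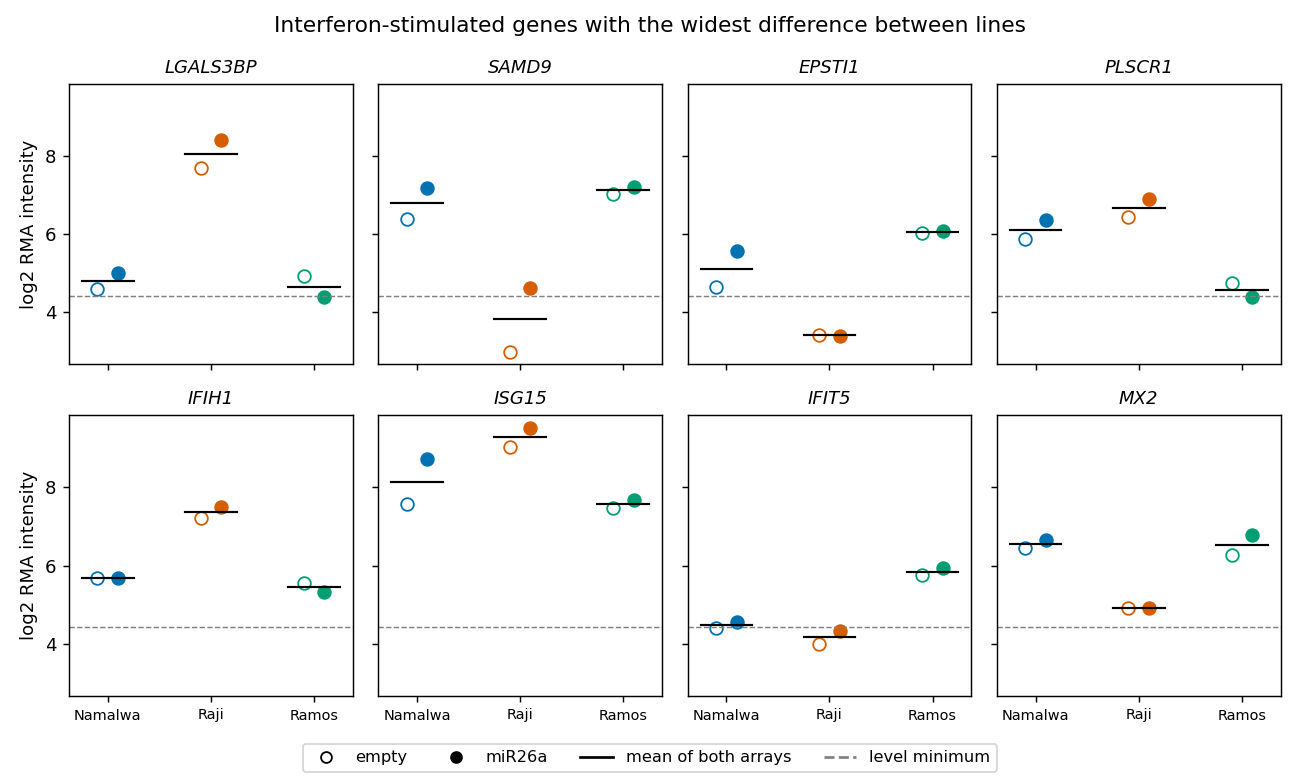
Log2 RMA intensity (y axis) of the 8 interferon-stimulated genes with the widest difference between lines, on the empty (open) and miR26a (filled) array of each line (x axis), with the mean of both arrays as a bar and the level minimum of 4.42 dashed. LGALS3BP, PLSCR1, IFIH1 and ISG15 are highest in Raji, and SAMD9, EPSTI1, IFIT5 and MX2 are lowest there.

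The genes that carry the signal to these targets were counted in the same way. Of 18 listed interferon ligands 16 had a probe set, and 15 of the 16 lay below the level minimum on every array. IFNA17 was the exception and was at -0.07. Of 9 receptor and kinase genes tested, 2 were higher at an unadjusted p under 0.05 (5.56% of all genes) and 0 lower (7.33%), with a median of 0.05. They were the receptor chains IL10RB at 0.28 and IFNGR1 at 0.25. The type I receptor chains IFNAR1 and IFNAR2 were at 0.20 and -0.10, and the kinases JAK1 and TYK2 at -0.06 and 0.02.

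Among 12 tested genes of nucleic acid sensing, 2 were higher at an unadjusted p under 0.05 (5.56% of all genes) and 0 lower (7.33%), and the median was 0.02. The 2 were the endosomal receptors TLR9 at 0.51 and TLR7 at 0.42, each higher in all 3 lines. Of 10 negative regulators 2 were higher at that p (5.56% of all genes) and 0 lower (7.33%), USP18 at 0.60 and PIAS1 at 0.31, with a median of 0.00. USP18 is also a gene of the main list and was counted there too.

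Another 33 tested genes known to be induced by type I interferon, kept on a separate list, had a median of 0.03. At an unadjusted p under 0.05, 3 were higher (5.56% of all genes), LGALS9 at 0.40, SP100 at 0.26 and the ISG15-conjugating enzyme UBE2L6 at 0.26. The same number were lower (7.33%), so both counts are near the background, IFITM3 at -0.31, TRIM26 at -0.25 and the peptide transporter TAP1 at -0.24. Of 8 tested genes of interferon gamma and IRF1, 1 was higher at that p (5.56% of all genes), HLA-E at 0.37. Also 1 was lower (7.33%), the tryptophanyl-tRNA synthetase WARS1 at -0.43. IRF1 itself was at 0.04, and the median was 0.08.

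Most T and NK cell markers and most monocyte and macrophage markers were at background, and markers of other cells were so less often. Of 8 fibroblast and epithelial markers 4 were below the level minimum on every array. Of 2 red cell markers with a probe set 0 were. COL1A1 ran from 6.53 to 7.15 over the arrays and HBB from 4.76 to 5.83. ITGAM, a myeloid integrin, changed by 0.87 in Namalwa, 1.17 in Raji and -0.39 in Ramos (mean 0.55, limma adjusted p = 0.381). CD14 and LYZ, which define monocytes, stayed below the level minimum on all arrays, and LYZ was at 4.07 on the Raji miR26a array and at 2.94 to 3.16 on the others. The summed linear intensity of the 7 monocyte and macrophage markers ran from 83.2 to 177 on the empty arrays and from 84.0 to 296 on the miR26a arrays. In Raji, ITGAM was the brightest of the 7 and weighed most in the sum, at 6.46 on the empty and 7.63 on the miR26a array. The part of cells other than B cells in the result was not tested.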

How the data were processed

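Total RNA of 6 samples was measured on Affymetrix U133 Plus arrays. The authors deposited RMA values on the log2 scale: background-corrected, quantile-normalised over arrays and summarised to 1 intensity per probe set. RMA in BRB Array Tools is named in the series design text, and GCOS and RMA in the submitters' processing notes, without versions. A shift of all RNAs one way would not be visible after RMA.

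The table held 54675 probe sets. A single gene symbol was given for 41091, several for 1801 and none for 11721, and 62 were controls. Symbols of 41037 were updated through Entrez IDs with RefSeq GRCh38.p14, and none was taken from a probe set with several genes. The brightest probe set stood for a gene. limma (3.58.1, R 4.3.3) was fitted over 12012 genes, with the line as a block between groups and the group as a block between lines, with Benjamini-Hochberg adjustment at 0.05. The line pairs the arrays: deviations from group means correlated at 0.861 (Namalwa), 0.95 (Raji) and 0.917 (Ramos). The fits were tested on simulated data. The number of arrays limits the precision.

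The members and lists were chosen with earlier results of these data known. Named with values on every array were the 12 genes of smallest p between groups, the 8 with the largest called line difference, and IRF7, IRF9 and STAT2; of the pathway lists, the core receptor, kinase and IRF1 genes and up to 4 per list by smallest p. Alternatives were other blocks, scalings, level minimums, probe set rules and priors, a 2-fold requirement, and leaving out each line or array.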

Additional observations from a re-analysis of the deposited data

Results flagged for a closer look

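IFI44L was singled out because its change differed between lines by the test of the difference itself. Its miR26a minus empty change in Raji was 1.65 log2 above the mean change of Namalwa and Ramos (limma adjusted p = 0.0210, no level minimum), with 1 residual degree of freedom per gene. Its changes were 1.45 in Namalwa, 2.65 in Raji and 0.56 in Ramos. This fit was chosen after seeing the data, and IFI44L was not tested with the level minimum. Both Ramos arrays and the Namalwa empty array, at 3.50, 2.94 and 3.02, were below that minimum of 4.42, and no cause was tested.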

How the results depend on the processing

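Of 84 alternative values of the counts and medians, 75 stayed within 1.5 times the count or within the spread and 9 moved. The count of genes higher at an unadjusted p under 0.05 was 15 with the line as a block (5.56% of all genes) and 4 with no replicate block (0.35%). It was 9 once the level minimum was raised to the 75th percentile (6.19%), where 15 genes were tested. With a line left out it ran from 12 to 18, against 4.4% to 6.69% of all genes. At the 75th percentile the counts between lines were 10 for Namalwa and Raji (59% of all genes), 11 for Raji and Ramos (60.8%) and 3 for Namalwa and Ramos (18.9%). Among the 33 genes, with at least a 2-fold difference as well, they were 12 for Namalwa and Raji (14%) and 3 for Namalwa and Ramos (2.83%). Leaving out 1 array gave 5 to 13 for Namalwa and Ramos. With no level minimum, 1 of 43 genes passed for the Raji response against the other lines, as did 30 of all 19775 genes. The causes were not tested, except that fewer genes were tested at the 75th percentile.

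None of the 252 alternative values of single genes changed direction. All 102 values of 8 line differences kept their call, and 15 of the 150 values of 13 responses passed a threshold they had missed. Adjusted p for IFIT2 ran from 1.62e-05 without Ramos to 1 with no replicate block, and for RNF213 from 0.00577 to 1 under the same 2 settings. After the level minimum was raised to the 75th percentile, 1 of 15 genes, RNF213, passed over all genes, among 50 genes called in all. An exact sign-flip test over 3 pairs cannot go below p = 0.25. Signal near background limits the changes of IFIT1 and SAMD9 in Raji and of IFI44 and IFI44L.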
